A study of Mus musculus with 11 samples.

Results

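The 38 genes described here drive or carry out cell division, from the cyclins and kinases that start the cell cycle to the proteins that build the spindle and split the cell. They were taken by symbol from a list of 39 genes of mitosis and cell cycle control, and the remaining gene of that list, Ccnb1, is not analysed here. Each gene is represented by the probe set that names it alone and has the highest mean over all arrays, and 18194 genes were measured in this way. By role, 7 of the 38 act in G1 and S phase entry, 8 at mitotic entry, 8 at the kinetochore and spindle checkpoint and 6 on the spindle or in the chromosomal passenger complex. A further 3 act in anaphase promotion and 4 in cytokinesis, and 2 (Mki67 and Top2a) are carried on or act on the chromosomes of dividing cells.

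Total RNA from mouse hearts was hybridised to 11 Affymetrix arrays: 3 from transgenic adults, 3 from control adults, 3 from transgenic newborns and 2 from control newborns, all C57BL/6 and called biological replicates in the labels. The labels give the age as adult or newborn only. Transgenic mice carried a mouse Hmgn5 cDNA with a FLAG tag, placed behind a floxed LacZ cassette and the broadly active CAG promoter, and were bred with alphaMHC-cre mice, whose cre removes the cassette in heart muscle cells. HMGN5 is a nuclear protein that binds nucleosomes and loosens chromatin. Controls are labelled wild-type, so by the labels they carry neither transgene nor cre, and an effect of cre cannot be told apart from one of HMGN5. Other cells of the heart, such as fibroblasts, endothelial cells and macrophages, contribute RNA to every sample but are not where this cre acts.

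Progress through the cell cycle depends on cyclins, which appear and vanish in order, and on the cyclin-dependent kinases they switch on. D-type cyclins start the cycle in response to growth signals, E-type cyclins with CDK2 open S phase, and cyclins A and B with CDK1 drive mitosis. Genes of late cell cycle stages are switched off together in resting cells by the DREAM complex, which reaches promoters through the cell cycle genes homology region (CHR), and are switched on in dividing cells by the related complex of B-MYB and FOXM1. Mouse heart muscle cells still divide around birth and leave the cell cycle soon afterwards, while the other cells of the heart keep some capacity to divide.

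The deposited values are log2 values, so a difference of 1.0 is a doubling, and array medians lay between 5.12 and 5.18. The 10 heart muscle markers had a mean level between 13.40 and 13.70 on every array, near the top of the scale. The Hmgn5 probe set was not higher in transgenic hearts: it read 8.29, 8.26 and 8.71 in transgenic adults and 8.44, 8.77 and 8.52 in control adults, and 8.70 against 8.83 on average in newborns. It is not stated which part of the transcript that probe set reads, so it does not check the labels. Replicate 3 of both adult groups gave high signals for the 18S ribosomal RNA control probes (12.18 transgenic and 11.89 control), against 7.64 to 8.58 on the other adult arrays, and is treated below as a possible processing batch. Newborn arrays lay between these sets. A difference between the ages therefore cannot be told apart from one in how their arrays were processed.

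Most of these genes were far lower in the adult than in the newborn heart. In control hearts 32 of the 38 genes were lower in adults at a limma adjusted p under 0.05, against 18.1% of all genes, and 0 were higher, against 14.9% of all genes. The median change of the 38 genes was -3.75 on the log2 scale, a 13.5-fold drop, and that of all genes was 0.09. The size depended on the probe set rule: with the mean of each gene's probe sets the median of the 38 was -2.34. A drop of more than 8-fold was seen for 24 of the 38. On 36 of them all 3 adult control arrays lay below both newborn control arrays, against 28.5% of all genes. Of the 38 genes, 36 exceeded the 40th percentile of array signal on at least 2 arrays, but 18 of these did so on newborn arrays alone, so the adult values of those 18 lie near the dim end of the scale. Birc5, Ccnb2, Bub1, Top2a and Ect2 are among the 18, and the size and rank of their falls are less certain than the calls. The 38 genes have 49 further probe sets, of which 40 changed in the same direction with age in controls, 27 were called in that direction and 1, for Tpx2, was called in the other (0.52, limma adjusted p = 0.0462). In a whole heart, fewer dividing cells and less of these RNAs per cell cannot be told apart.

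**Figure D1:**
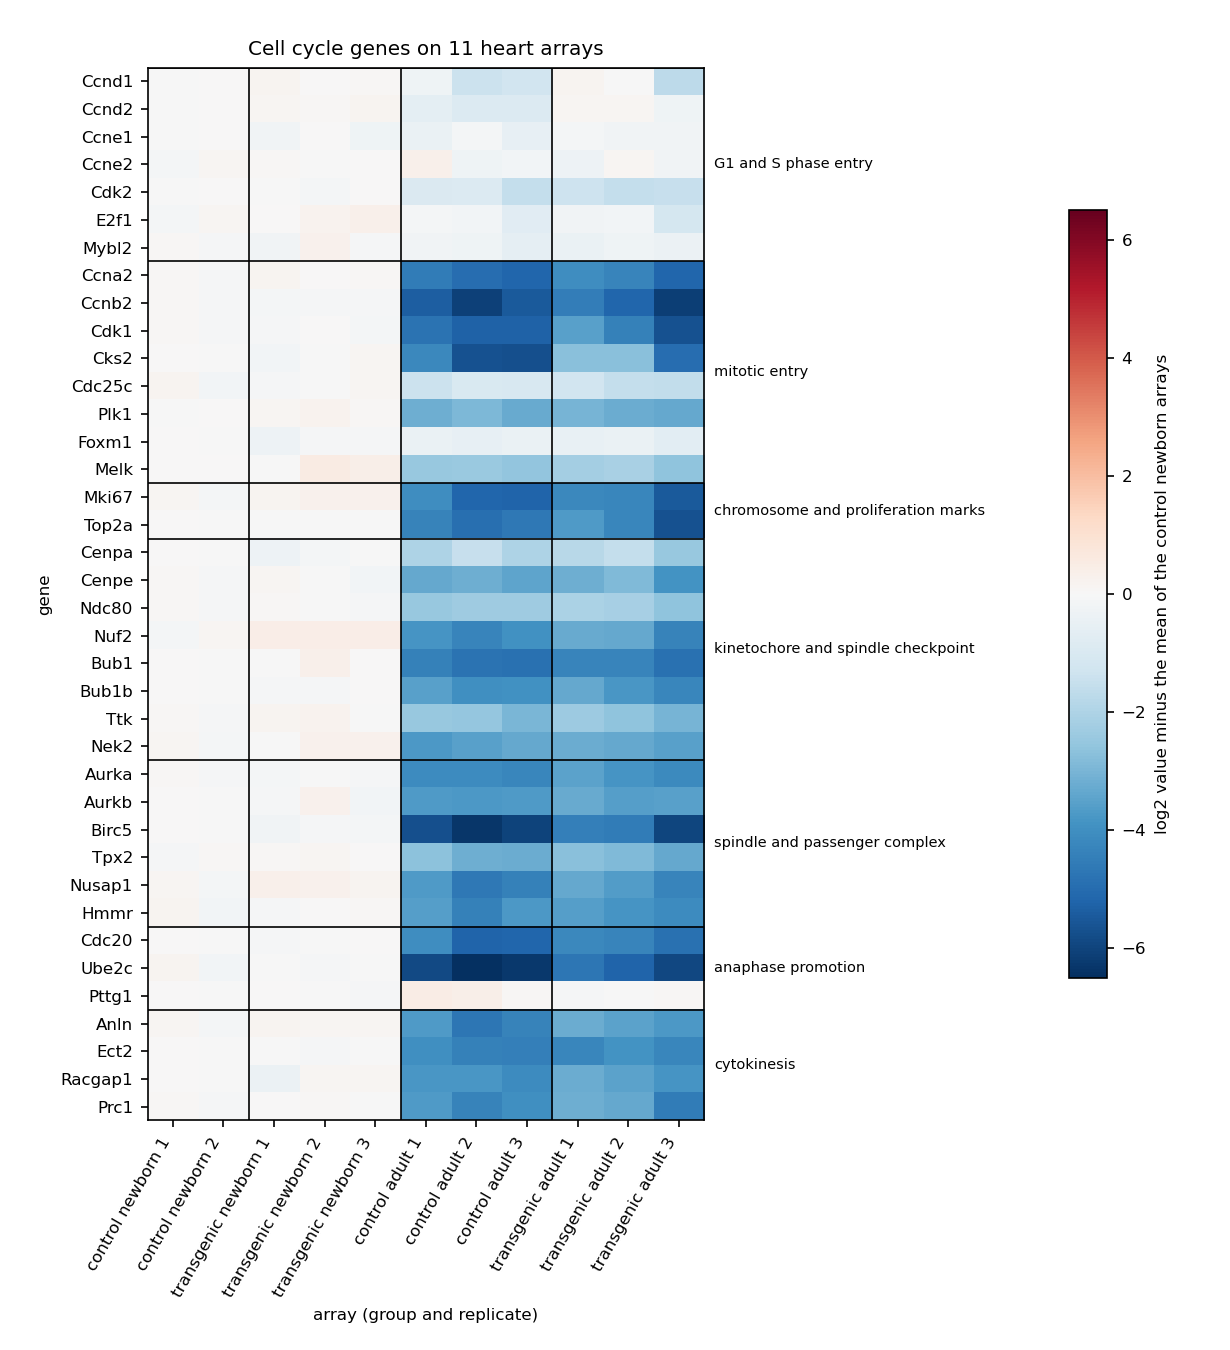
Heat map of the 38 genes (rows, grouped by role) on the 11 arrays (columns), with colour giving the log2 value minus the mean of the control newborn arrays. Adult arrays are blue for nearly every mitotic gene in both genotypes, down to -6.26 on average for Ube2c in controls, while Foxm1, Pttg1 and most genes of G1 and S phase entry stay pale.

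The first role is G1 and S phase entry. Of its 7 genes, Cdk2 and Ccnd2 fell with age in control hearts and the other 5 were not called, with a median of -0.37. Cdk2, the kinase that acts with cyclins E and A in S phase, read 7.94 and 8.00 on the control newborn arrays and 7.05, 7.10 and 6.43 on the control adult arrays, and fell by 1.11 (SE 0.18, 2.16-fold, limma adjusted p = 0.000981). Transgenic hearts gave 7.92, 7.84 and 8.01 in newborns and 6.61, 6.44 and 6.46 in adults. Every adult array was below every newborn array, and control adult 3 and the transgenic adults were the lowest.

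Ccnd2, which encodes the cyclin D2 of G1 phase, read 10.72 and 10.81 in control newborns and 10.15, 9.87 and 9.90 in control adults, and fell by 0.80 (SE 0.14, 1.74-fold, limma adjusted p = 0.00181). In transgenic hearts it read 10.90, 10.86 and 10.93 in newborns and 10.90, 10.89 and 10.51 in adults. Transgenic adults 1 and 2 thus lay within the newborn range, transgenic adult 3 somewhat below it, and the control adults lower still. Ccnd1, the cyclin D1 gene, was scattered in adults: it read 9.42, 8.29 and 8.43 in controls and 9.85, 9.67 and 7.98 in transgenics. Its newborn values were closely spaced at 9.64 and 9.72 in controls and 9.86, 9.70 and 9.76 in transgenics. The spread across adult arrays left its age change of -0.96 (SE 0.48) in controls uncalled, at a limma adjusted p of 0.144.

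On the probe sets kept, the E-type cyclins were nearly level between the ages. Ccne1 read 6.07 and 6.15 in control newborns, 5.69, 5.97 and 5.55 in control adults, 5.89, 6.14 and 5.84 in transgenic newborns and 6.00, 5.89 and 5.89 in transgenic adults. Its control adults were below both control newborns, by 0.37 on average (limma adjusted p = 0.0699), and its transgenic groups overlapped. A second Ccne1 probe set was called lower with age in controls, by 0.68 (limma adjusted p = 0.0405). In transgenics that probe set was lower by 0.48 (limma adjusted p = 0.077). Ccne2 read 4.91 and 5.21 in control newborns, 5.37, 4.77 and 4.87 in control adults, 5.14, 5.02 and 5.06 in transgenic newborns and 4.71, 5.21 and 4.84 in transgenic adults. All of its groups overlapped, with an age difference of -0.06 in controls (limma adjusted p = 0.839), and it was 1 of the 2 genes here that did not pass the signal filter.

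E2f1, the transcription factor that turns on S phase genes, read 6.53 and 6.78 in control newborns and 6.52, 6.49 and 5.94 in control adults, a difference of -0.34 that was not called (limma adjusted p = 0.344). In transgenic hearts it read 6.71, 6.86 and 6.97 in newborns and 6.43, 6.48 and 5.54 in adults, a fall of 0.70 (SE 0.24, limma adjusted p = 0.0417). This call was lost in 12 of 22 alternatives, over which the limma adjusted p ran from 0.0115 to 0.113. Without transgenic adult 3 the fall was 0.39 (limma adjusted p = 0.09). It was also lost without control adult 2, without each of transgenic newborns 1, 2 and 3 and without either control newborn. Replicate 3 was the lowest adult array of both genotypes. Mybl2, which encodes B-MYB, read 4.88 and 4.74 in control newborns, 4.56, 4.55 and 4.23 in control adults, 4.56, 5.11 and 4.72 in transgenic newborns and 4.39, 4.51 and 4.44 in transgenic adults. Adults lay below newborns in both genotypes by 0.37 in controls and 0.35 in transgenics, neither called (limma adjusted p = 0.113 and 0.0851), and Mybl2 was the other gene below the signal filter.

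From mitotic entry onwards the fall was general: 30 of the 31 genes that act from mitotic entry to cytokinesis fell with age in control hearts, with a median of -4.01. All 8 genes of mitotic entry fell, by 1.39-fold to 49.7-fold. Cyclin B2 and CDK1 form the kinase that triggers mitosis. Ccnb2 read 10.25 and 10.13 in control newborns and 4.81, 4.10 and 4.75 in control adults, and fell by 5.63 (SE 0.37, 49.7-fold, limma adjusted p = 1.86e-06). Its transgenic values were 10.06, 10.11 and 10.10 in newborns and 5.70, 5.03 and 4.08 in adults. Transgenic adult 1 was the highest and transgenic adult 3 the lowest of the adult arrays, and all were far below any newborn. Cdk1 read 10.31 and 10.20 in control newborns and 5.45, 4.98 and 5.00 in control adults, and fell by 5.11 (SE 0.45, 34.5-fold, limma adjusted p = 1.55e-05). Its transgenic values were 10.17, 10.28 and 10.12 and 6.74, 5.88 and 4.59, with the same order of the transgenic adult arrays.

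Ccna2, the cyclin that bridges S phase and mitosis, read 10.02 and 9.88 in control newborns and 5.40, 4.99 and 4.80 in control adults, and fell by 4.89 (SE 0.28, 29.6-fold, limma adjusted p = 7.66e-07). In transgenic hearts it read 10.13, 9.98 and 10.05 in newborns and 5.92, 5.65 and 4.80 in adults. Adult values did not come near the newborn range in either genotype. Cks2, a small subunit of cyclin-dependent kinases, read 10.92 and 10.91 in control newborns and 6.74, 5.24 and 5.22 in control adults, and fell by 5.19 (SE 0.62, 36.4-fold, limma adjusted p = 0.000126). Transgenic newborns read 10.76, 10.88 and 11.02 and transgenic adults 8.21, 8.18 and 5.96. Cks2 had the widest spread of the 38 genes within both adult groups, with transgenic adults 1 and 2 and control adult 1 well above the others.

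Plk1, a kinase needed for entry into and passage through mitosis, had the smallest p of this role: it read 8.38 and 8.40 in control newborns and 5.20, 5.45 and 5.13 in control adults, and fell by 3.13 (SE 0.14, 8.74-fold, limma adjusted p = 1.21e-07). Transgenic newborns read 8.50, 8.61 and 8.48 and transgenic adults 5.38, 5.16 and 5.07. Adult arrays of both genotypes overlapped within a narrow band. Melk, a kinase gene expressed in dividing and progenitor cells, read 5.99 and 5.99 in control newborns, 3.55, 3.59 and 3.45 in control adults, 5.96, 6.55 and 6.37 in transgenic newborns and 3.79, 3.88 and 3.36 in transgenic adults, and in controls it fell by 2.46 (SE 0.19, 5.52-fold, limma adjusted p = 5.69e-06). On the probe set kept, Foxm1, the transcription factor of late cell cycle genes, had the smallest called change of the 38 genes in controls. It read 6.70 and 6.69 in control newborns, 6.25, 6.14 and 6.28 in control adults, 6.34, 6.62 and 6.63 in transgenic newborns and 6.18, 6.24 and 6.03 in transgenic adults, and in controls it fell by 0.47 (SE 0.13, 1.39-fold, limma adjusted p = 0.0162). All adult arrays were below all newborn arrays, but by a small margin. Another Foxm1 probe set fell by 1.02 in controls (limma adjusted p = 0.000107) and 1.005 in transgenics (4.85e-05). A further probe set fell by 0.55 in controls (limma adjusted p = 0.0152) and 0.61 in transgenics (0.00463). The dimmest probe set of Foxm1 was not called (0.21 in controls, limma adjusted p = 0.262). Cdc25c, the phosphatase that activates CDK1, fell by 1.16 in controls and 1.45 in transgenics.

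Mki67, which encodes the Ki-67 protein that coats mitotic chromosomes and is a common stain for dividing cells, read 10.19 and 9.95 in control newborns and 6.04, 4.90 and 4.85 in control adults, and fell by 4.81 (SE 0.40, 28-fold, limma adjusted p = 1.01e-05). Transgenic newborns read 10.25, 10.34 and 10.33 and transgenic adults 5.87, 5.80 and 4.60. Control adult 1 and transgenic adults 1 and 2 were about 1 log2 unit above the other adult arrays. Top2a, the topoisomerase that untangles chromosomes before they part, fell by 4.64 in controls and 4.51 in transgenics.

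On the probe sets kept, all 8 kinetochore and spindle checkpoint genes fell, by 3.58-fold to 25.8-fold in controls. Bub1, a checkpoint kinase that holds anaphase until chromosomes are attached, read 7.45 and 7.44 in control newborns and 3.04, 2.66 and 2.58 in control adults, and fell by 4.69 (SE 0.20, 25.8-fold, limma adjusted p = 1.2e-07). Transgenic newborns read 7.41, 7.76 and 7.47 and transgenic adults 3.17, 3.14 and 2.61. Its adult arrays lay within less than 1 log2 unit of each other. A second Bub1 probe set fell by less, 1.34 in controls (limma adjusted p = 0.000426) and 1.22 in transgenics (0.000338). Cenpa, the histone variant that marks centromeres, had the smallest fall of this role, by 1.84 in controls, and Nuf2 and Ndc80, partners in the complex that grips microtubules, fell by 4.02 and 2.36. The motor gene Cenpe fell by 3.31, and the checkpoint genes Bub1b and Ttk by 3.82 and 2.66. The centrosome kinase gene Nek2 fell by 3.53.

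The 6 spindle and passenger complex genes all fell. Birc5 encodes survivin, a subunit of the passenger complex that corrects faulty attachments. It read 9.78 and 9.77 in control newborns and 4.06, 3.44 and 3.75 in control adults, and fell by 6.02 (SE 0.37, 65-fold, limma adjusted p = 1.27e-06). Transgenic newborns read 9.53, 9.68 and 9.62 and transgenic adults 5.32, 5.25 and 3.79. Transgenic adults 1 and 2 were more than 1 log2 unit above every other adult array, and transgenic adult 3 lay within the controls. Aurka, the kinase that matures spindle poles, had the smallest p of this role: it read 8.43 and 8.28 in control newborns and 4.24, 4.27 and 4.10 in control adults, and fell by 4.15 (SE 0.17, 17.7-fold, limma adjusted p = 7.39e-08). Transgenic newborns read 8.21, 8.31 and 8.29 and transgenic adults 4.87, 4.52 and 4.23. Aurkb, the kinase of the passenger complex, fell by 3.68 in controls. The spindle genes Tpx2, Nusap1 and Hmmr fell by 3.03, 4.25 and 3.89.

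Of the 3 anaphase genes, 2 fell and the third, Pttg1, did not. Ube2c, the ubiquitin-conjugating enzyme that works with the anaphase promoting complex, had the largest fall of the 38 genes. It read 10.99 and 10.64 in control newborns and 4.93, 4.21 and 4.54 in control adults, and fell by 6.26 (SE 0.30, 76.5-fold, limma adjusted p = 2.54e-07). Transgenic newborns read 10.80, 10.72 and 10.79 and transgenic adults 6.14, 5.59 and 4.91. Transgenic adults 1 and 2 were the highest adult arrays, and transgenic adult 3 and control adult 1 came next. Cdc20, which activates the complex, read 10.68 and 10.64 in control newborns and 6.64, 5.43 and 5.49 in control adults, and fell by 4.81 (SE 0.32, 28-fold, limma adjusted p = 2.01e-06). Transgenic newborns read 10.60, 10.64 and 10.68 and transgenic adults 6.49, 6.36 and 5.82, and control adult 1 was the highest adult array.

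Pttg1 encodes securin, an inhibitor that delays the parting of sister chromatids until anaphase. It read 12.02 and 11.94 in control newborns, 12.45, 12.37 and 12.06 in control adults, 12.01, 11.97 and 11.91 in transgenic newborns and 11.89, 11.98 and 12.04 in transgenic adults. Control adults were above all other groups, with replicates 1 and 2 clearly so and replicate 3 only just, and the control age difference of 0.32 (SE 0.13) was not called (limma adjusted p = 0.0864). In 4 of 22 alternatives it was called as a rise: without control adult 3 (0.43, limma adjusted p = 0.0189), without replicate 3 of both adult groups (0.43, 0.00925), with the 18S batch as a factor (0.36, 0.0439) and with a common median (0.37, 0.0489). The transgenic groups overlapped.

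All 4 cytokinesis genes fell, by 14.8-fold to 19.2-fold in controls. Ect2, the exchange factor that starts the contractile ring, read 7.51 and 7.47 in control newborns and 3.53, 3.09 and 3.07 in control adults, and fell by 4.26 (SE 0.16, 19.1-fold, limma adjusted p = 6.58e-08). Transgenic newborns read 7.48, 7.40 and 7.44 and transgenic adults 3.24, 3.59 and 3.24. Adult arrays of both genotypes overlapped. Anln, the ring scaffold anillin, read 9.30 and 9.04 in control newborns, 5.51, 4.47 and 4.80 in control adults, 9.34, 9.28 and 9.29 in transgenic newborns and 5.93, 5.68 and 5.42 in transgenic adults, and in controls it fell by 4.24 (SE 0.26, 18.9-fold, limma adjusted p = 1.03e-06). Transgenic adult 1 was its highest adult array and control adult 2 its lowest. Racgap1 and Prc1, which organise the midzone between the parting chromosomes, fell by 3.89 and 4.01.

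Transgenic hearts went through much the same fall. In them 32 of the 38 genes fell with age, against 19.7% of all genes, and 0 rose, against 19.7%. The median was -3.46, or -2.25 with the mean of each gene's probe sets. The fall was called in both genotypes for 31 genes, which is 31 of the 32 in either list. Ccnd2 was called in controls alone and E2f1 in transgenics alone, the latter with the instability given above. The drop was smaller in transgenic than in control hearts for 26 of the 38 genes. The difference between the genotypes, which is the same as that between the transgenic effects in adults and in newborns, was called for 0 of the 38, against 0.687% of all genes, and 3 (7.89%) had an unadjusted p under 0.05, against 10.0% of all genes. Its smallest limma adjusted p was 0.194, for Ccnd2, whose difference was 0.66 (SE 0.19). Without transgenic adult 3, and also without replicate 3 of both adult groups, 4 of the 38 genes (10.5%) were called for this difference, against 2.97% and 3.91% of all genes. The genes called without both were Birc5, Ccnd2, Cks2 and Ube2c.

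**Figure D2:**
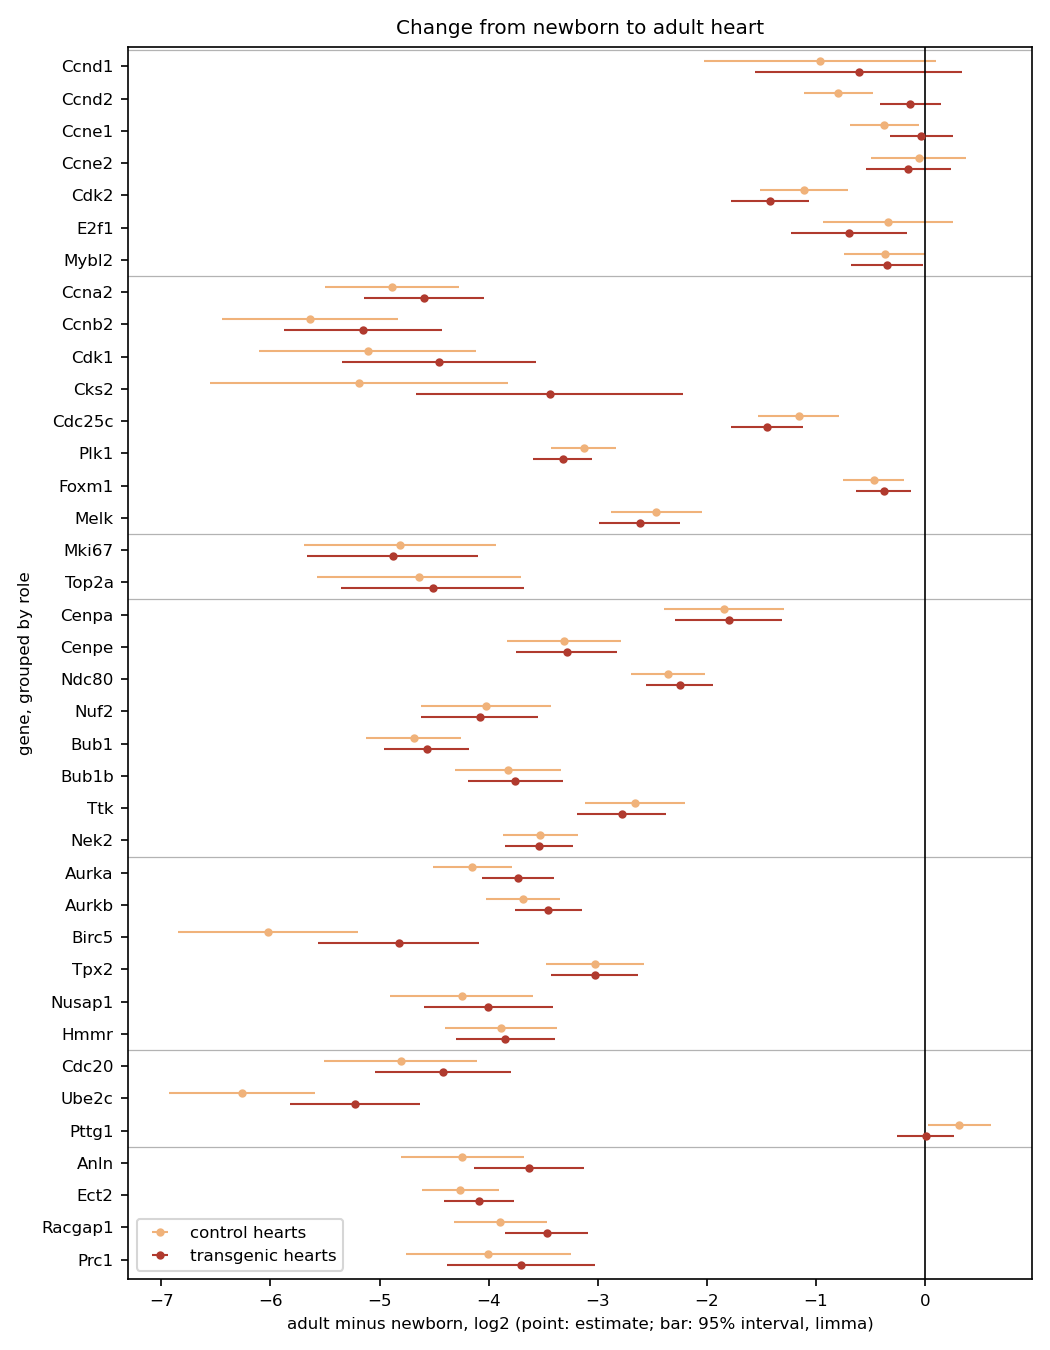
Adult minus newborn difference on the log2 scale for each of the 38 genes in control and transgenic hearts, with points for limma's estimate and bars for its 95% interval. Genes from Ccna2 downwards lie left of 0 in both genotypes except Pttg1 (0.32 in controls), and estimates of the G1 and S phase genes lie between -1.42 and -0.03.

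The levels of other cells' markers also differed with age. Macrophage markers, read over 8 genes, rose in all 8 cases, from a mean of 6.54 to 7.01 on the control newborn arrays to 8.30 to 8.71 on the control adult arrays. Of 8 fibroblast markers 5 fell and 1 rose, and of 8 endothelial markers 3 fell. Of 7 lymphocyte markers 6 rose, and of 6 atrial muscle markers 1 fell. Of 5 red cell markers 1 rose and 1 fell, and of 6 thymus markers 2 rose. Among all genes 14.9% rose and 18.1% fell with age in controls. Heart muscle markers changed little, with 2 of 10 rising. The part of these shifts in the fall of the 38 genes was not tested.

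For genes with a promoter in the RefSeq table of assembly GRCm38.p6 (30 of the 38), the stretch from 250 bases before to 50 bases after each annotated start was searched on both strands for the elements named above. The CHR was searched as TTTGAA and the box bound by NF-Y, which often accompanies it, as CCAAT. Of the 26 genes of the mitotic roles with a promoter, 17 held the CHR letters (65.4%), against 20.2% of 27025 mouse genes. The NF-Y box was found in 19 of 26 (73.1%), against 41.1% of all genes, and both together in 15 of 26 (57.7%), against 7.97%. Of the 4 genes of G1 and S phase entry with a promoter, 0 held the CHR letters and 1 the NF-Y box. An E2F element, searched as TTTCCCGC, TTTCGCGC, TTTGCCGC or TTTGGCGC, was found in 1 of 26 mitotic genes (Cdk1) and 1 of 4 G1 and S phase genes (Cdk2), against 2.60% of all genes. None of these strings contains another. A match is a description of the letters and shows neither a site in use nor a cause.

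Printed here are 30-base stretches that lie before every annotated start of the gene and hold a CHR match, for genes among those with the largest age change and for 1 or 2 genes of the other mitotic roles where such a stretch exists. Each runs 5′ to 3′ on the strand of its gene, in GRCm38.p6 coordinates, with the CHR letters in capitals, as TTTGAA or, where the match is on the other strand, as TTCAAA.
Ube2c, chr2:164769888-164769917, plus strand: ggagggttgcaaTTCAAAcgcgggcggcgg
Ccnb2, chr9:70421704-70421733, minus strand: cagggactagaaTTTGAAaataagactgta
Cdk1, chr10:69352913-69352942, minus strand: ctttaccgcggcgagTTTGAAactgctggc
Cdk1, chr10:69352966-69352995, minus strand: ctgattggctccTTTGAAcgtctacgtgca
Mki67, chr7:135716460-135716489, minus strand: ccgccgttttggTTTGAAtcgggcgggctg
Cdc20, chr4:118437344-118437373, minus strand: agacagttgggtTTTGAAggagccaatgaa
Top2a, chr11:99024195-99024224, minus strand: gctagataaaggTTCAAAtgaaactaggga
Ect2, chr3:27153975-27154004, minus strand: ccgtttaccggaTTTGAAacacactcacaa
Counted from the start, the capitals begin at position -29 in Ube2c, -18 in Cdc20 and -23 in Top2a. Cdk1 has them at -15 and at -71, and the second of these stretches also carries the NF-Y box on its other strand. In Mki67 they begin at -98, in Ect2 at -114 from the nearer of its starts and in Ccnb2 at -167. Further CHR matches, not printed, begin at -179 in Top2a, -116 in Mki67, 4 in Ccnb2 and, from the same start as above, 39 in Ect2. The Cdc20 stretch also holds the NF-Y letters, after its CHR. The single E2F match of the G1 and S phase genes, in Cdk2 at position -140, is shown for contrast, with the E2F letters in capitals as read from the other strand.
Cdk2, chr10:128705173-128705202, minus strand: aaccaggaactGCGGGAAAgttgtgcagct
Birc5 held neither the CHR nor the NF-Y letters in its window, which says only that these letters are not there.

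**Figure D3:**
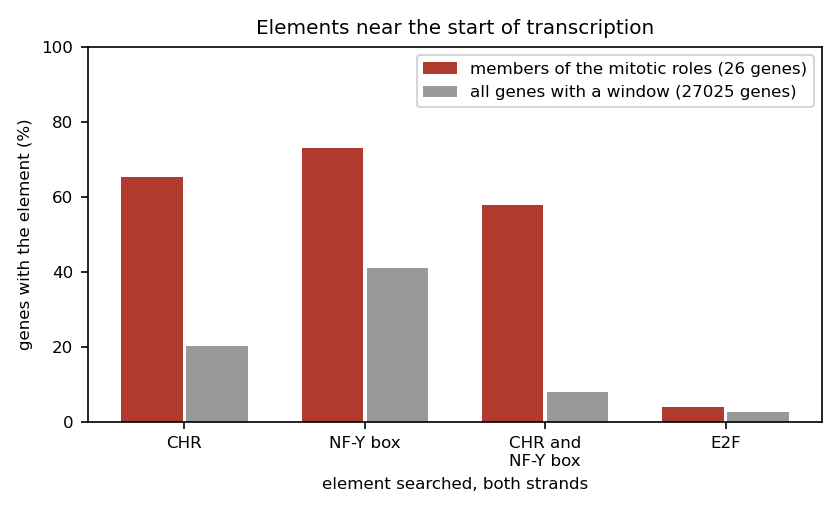
Percentage of genes whose promoter window holds the CHR, the NF-Y box, both, or an E2F element, for the 26 genes of the mitotic roles and for all 27025 genes with a window. The CHR stands at 65.4% against 20.2% and both elements at 57.7% against 7.97%, while the E2F element is rare in both sets.

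Adult transgenic and control hearts differed in few of these genes. Ccnd2 rose in transgenic adults by 0.79 (SE 0.13, 1.73-fold, limma adjusted p = 0.00424) and was the only 1 of the 38 genes called in this comparison. Among all genes 4.16% were called higher and 2.93% lower. The values above show all 3 transgenic adult arrays, 10.90, 10.89 and 10.51, over all 3 control adults, 10.15, 9.87 and 9.90, with no overlap. All 7 probe sets of Ccnd2 gave a higher mean in transgenic adults and 4 of them were called. The difference was 0.61 between the replicate 3 arrays and 0.88 between the means of replicates 1 and 2. Over 23 alternative treatments of the data Ccnd2 was called in 22, at 0.68 to 0.92, and lost the call in a fit of the adult arrays alone (limma adjusted p = 0.0612).

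Of the 38 genes, 29 were higher and 9 lower in transgenic adults, with a median of 0.16 against 0.005 for all genes. An unadjusted p under 0.05 was reached by 9 of the 38 (23.7%), against 20.2% of all genes. After Ccnd2 the smallest p-values were those of Ube2c, at 0.99 (SE 0.27, limma adjusted p = 0.0533), and Anln, at 0.75 (SE 0.23, limma adjusted p = 0.0788). Birc5 followed at 1.04 (SE 0.33, limma adjusted p = 0.0949), and Cks2 at 1.72 (SE 0.55, limma adjusted p = 0.096). In each of these 4 genes transgenic adults 1 and 2 were high and transgenic adult 3 lay within the control range. A second probe set gave only 0.18 for Anln (limma adjusted p = 0.846) and 1.65 for Cks2 (limma adjusted p = 0.0843). Pttg1 went the other way, at -0.33 (SE 0.12, limma adjusted p = 0.137). The 3 transgenic arrays lay above all 3 control arrays for Ccnd2 and Aurkb (2 of 38, against 10.0% of all genes) and below them for Pttg1 (1 of 38, against 7.94%). These adult differences and the age changes in controls use the same control adult arrays.

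**Figure D4:**
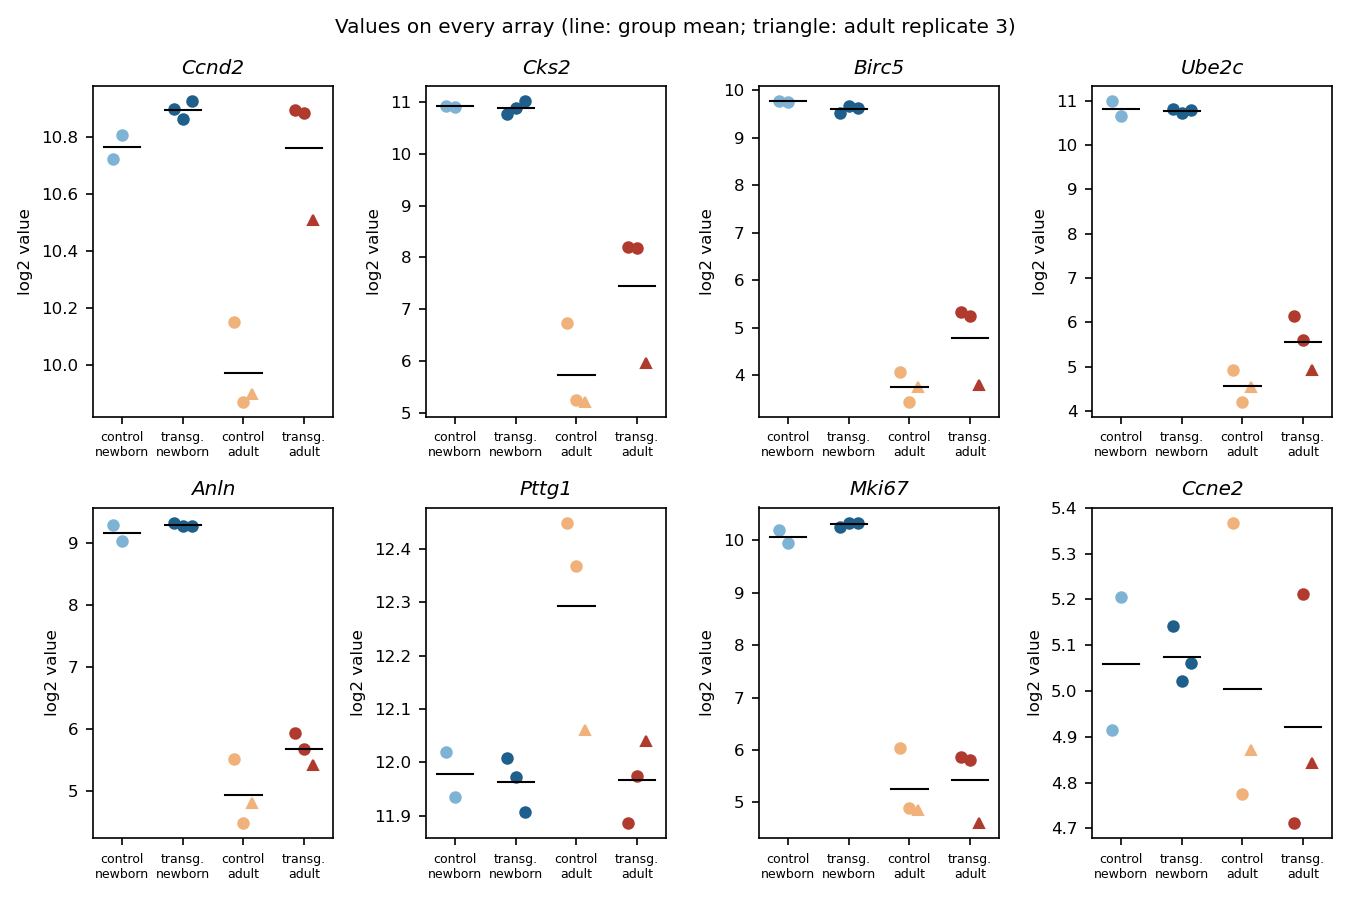
Log2 values of selected genes on every array, by group, with points for arrays (triangles for adult replicate 3), lines for group means and a separate vertical scale in each panel. Ccnd2 separates transgenic adults from control adults, whereas in Birc5, Cks2 and Ube2c transgenic adult 3 falls among the controls and all adults lie far below the newborns.

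The adult differences varied with the arrays read. Within the groups, the median SD over all genes was 0.211 in adults and 0.106 in newborns, and the fit uses 1 spread per gene for both ages, which by these medians lies below the adult and above the newborn spread. Transgenic adult 1 held the highest adult value for 22 of the 38 genes and transgenic adult 3 the lowest for 19. The mean level of the 38 genes was 5.81, 5.67 and 5.05 on the transgenic adult arrays and 5.50, 5.15 and 5.14 on the control adult arrays, so that transgenic adult 3 was below every control. Between the means of replicates 1 and 2, 31 genes were higher in transgenics and 7 lower, with a median of 0.30. Between the replicate 3 arrays, which had high 18S signals, 15 were higher, 22 lower and 1 equal, with a median of -0.05. Without transgenic adult 3, 13 of the 38 genes (34.2%) were called, against 12.5% of all genes. Without replicate 3 of both groups 11 (28.9%) were called, against 2183 of the 18194 genes in all. Of the 11, 9 rose (Birc5, Ccna2, Ccnb2, Ccnd2, Cdk1, Cks2, Nuf2, Prc1 and Ube2c) and 2 fell (Cdk2 and Pttg1). The count was 5 (13.2%, against 8.10% of all genes) without control adult 1 and 3 (7.89%, against 5.52%) without control adult 3. With the 18S batch as a factor it was 5 (13.2%), against 14.4% of all genes.

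Markers of some other cells moved with the adult arrays. For the counts that follow, 4.16% of all genes rose and 2.93% fell in transgenic adults. Macrophage markers, of which 3 of 8 rose in transgenic adults, had a mean level of 9.21, 9.22 and 8.58 on the transgenic adult arrays and 8.71, 8.30 and 8.36 on the control adult arrays, so transgenic adults 1 and 2 were again high and control adult 1, above transgenic adult 3, was the highest control. Fibroblast markers, of which 2 of 8 rose, read 10.92, 11.02 and 10.43 against 9.87, 9.33 and 10.36, with no overlap. Endothelial markers (1 of 8 fell) overlapped at 8.54, 8.32 and 8.41 against 8.49, 8.57 and 8.45. Heart muscle markers (0 of 10 called, 7 lower and 3 higher) overlapped at 13.40, 13.48 and 13.60 against 13.55, 13.66 and 13.70. Lymphocyte markers (0 of 7 called) overlapped at 5.34, 5.31 and 4.69 against 5.39, 5.11 and 5.01. Markers of atrial muscle varied most, at 10.65, 8.52 and 8.47 against 9.72, 9.44 and 10.87. Of these 6 markers 2 rose, while the other 4 were lower in transgenic adults without being called, with a median of -1.04 over the 6. The part of all these markers in the adult differences of the 38 genes was not tested, and these values do not show which cells the RNA of Ccnd2 or of the mitotic genes came from.

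No difference between transgenic and control newborns was called in these genes. None of the 38 was called by limma, against 0% of all genes, and 0 of the 38 had an unadjusted p under 0.05, against 1.09% of all genes. With 3 arrays against 2, the median 95% interval of the 38 genes reached 0.47 to either side of the estimate, so the absence of a call does not show that levels were equal. The smallest p belonged to Nuf2, which read 7.98, 7.96 and 7.98 in transgenic newborns and 7.39 and 7.67 in control newborns, a difference of 0.44 (limma unadjusted p = 0.132). All transgenic values were above both controls. The values of Melk given above differ by 0.30 with overlapping groups, and those of Foxm1 by -0.16 with all transgenic newborns below both controls. Nek2 read 7.44, 7.76 and 7.75 in transgenic and 7.59 and 7.36 in control newborns, and these overlapped. In Ccne1 the transgenic newborns were lower by 0.15 on average, also with overlap. Across the 38 genes the groups did not overlap for 5 that were higher (Ccnd2, Plk1, Mki67, Nuf2 and Nusap1), against 11.1% of all genes, and for 3 that were lower (Ccnb2, Foxm1 and Birc5), against 9.83%.

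**Figure D5:**
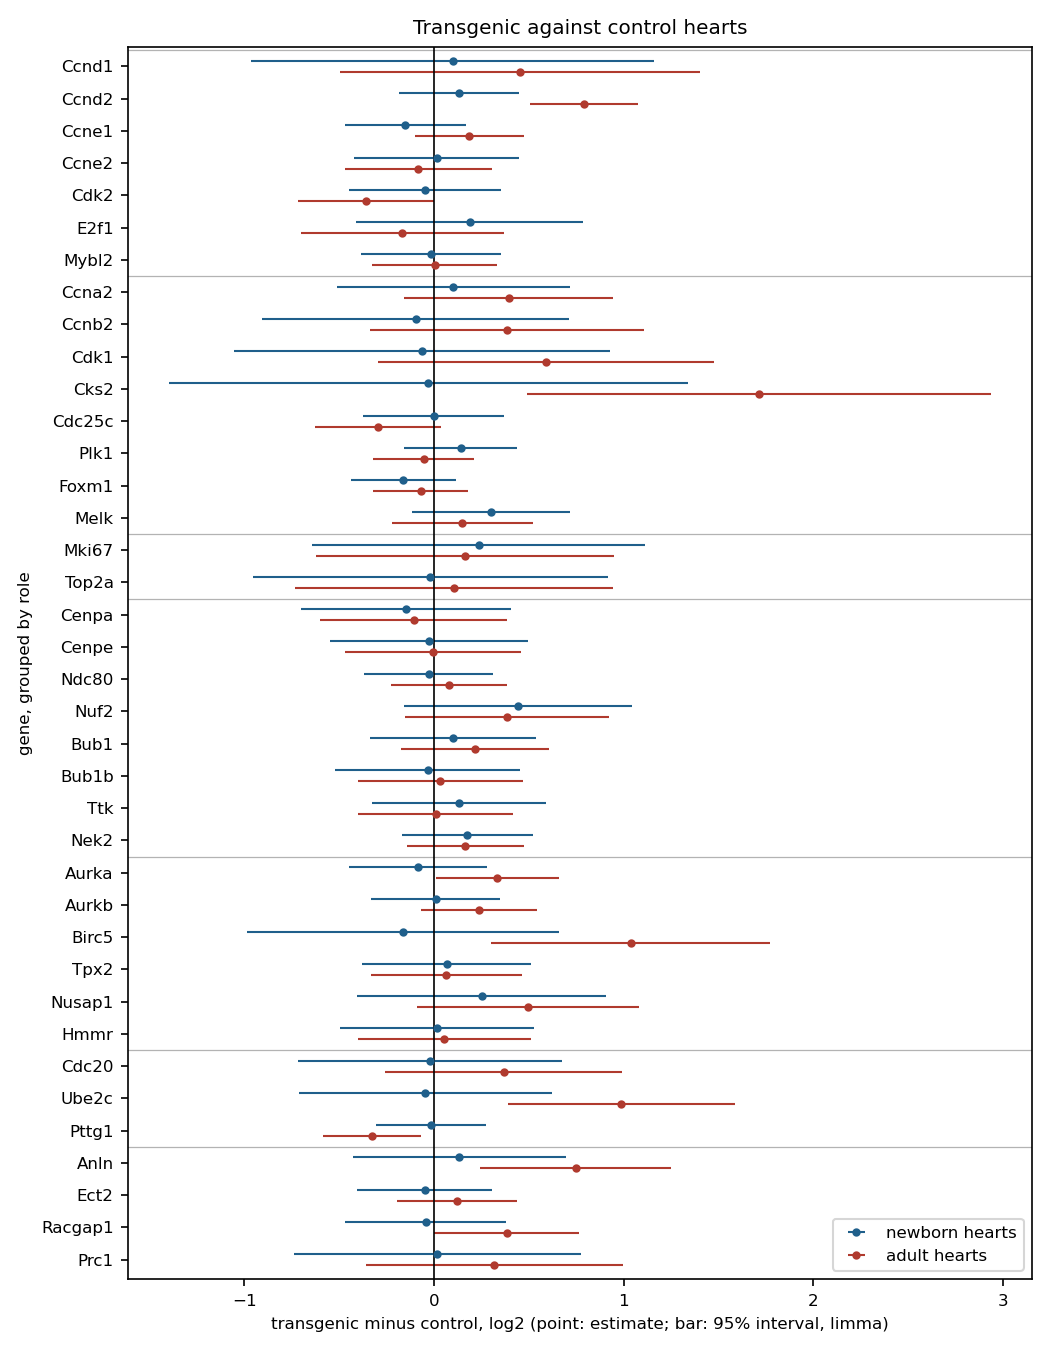
Transgenic minus control difference on the log2 scale for each of the 38 genes in adult and newborn hearts, with points for limma's estimate and bars for its 95% interval. In adults the interval of Ccnd2 (0.51 to 1.08) lies clear of 0 and Cks2 has the largest estimate (1.72), and newborn estimates lie between -0.16 and 0.44.

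The wider cell cycle machinery outside the 38 genes was read from 6 further lists. For their age counts in controls, 18.1% of all genes fell and 14.9% rose. Of 29 other spindle and cytokinesis genes, 27 fell with age in controls and 0 rose, led by Cep55 at -5.04, a protein of the final cut between daughter cells, Cdca8 at -4.75 (borealin, a partner of survivin), Kif20a at -4.68 (a midzone motor) and Cdca3 at -4.67. Of 27 other kinetochore and checkpoint genes, 20 fell and 2 rose, with Spc25 at -5.02, a partner of Ndc80 and Nuf2, Cenpk at -3.82, Cenpi at -3.29 and the checkpoint gene Mad2l1 at -2.99. Of 17 other cyclins, kinases and phosphatases, 11 fell and 1 rose, with the largest changes in Cks1b (-3.04), Plk4 (-2.67, the kinase of centriole copying), Cdc25b (-2.58) and the G1 kinase gene Cdk6 (-2.05).

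The other 3 lists hold inhibitors and regulators of the cycle. Of 7 genes for inhibitors of cyclin-dependent kinases, 5 fell with age in controls and 0 rose (median -1.02), among them Cdkn2d (-1.77), Cdkn1c (-1.52), Cdkn2b (-1.23) and Cdkn1b (-1.02). Of 20 genes of the Rb, E2F and DREAM network 10 fell and 2 rose (median -0.45), led by the growth regulators Mycn (-2.43) and Myc (-1.71), the repressor E2f8 (-2.29) and Rbl1 (-1.72), which encodes the pocket protein p107. Subunits and partners of the anaphase promoting complex fell in 8 of 17 cases, with 0 rising and a median of -0.38. The largest were its inhibitor Fbxo5 (-1.75), the enzyme Ube2s (-1.45), the activator Fzr1 (-1.13) and the subunit Anapc2 (-0.88). The medians of the preceding lists were -2.80 for spindle and cytokinesis, -1.38 for kinetochore and -1.24 for cyclin and kinase genes.

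In transgenic adults 6 of the 117 genes of these lists were called (5.13%), against 7.09% of all genes. Higher were the inhibitor gene Cdkn2d by 0.65 (SE 0.15, limma adjusted p = 0.0277), the stress-responsive kinase gene Plk2 by 0.86 (SE 0.22, limma adjusted p = 0.0378), the condensin gene Smc4 by 0.69 (SE 0.13, limma adjusted p = 0.0076) and Mybl1, a relative of Mybl2, by 0.59 (SE 0.15, limma adjusted p = 0.04). Sgo2a, which encodes a protector of centromere cohesion, fell by 1.10 (SE 0.17, limma adjusted p = 0.00358). Cenpf, which encodes a large kinetochore protein also made in heart muscle, read 6.01, 6.38 and 5.42 in transgenic adults, 8.52, 8.28 and 8.58 in control adults, 8.94, 8.97 and 8.84 in transgenic newborns and 9.15 and 8.78 in control newborns. All transgenic adult arrays were far below all others, and it fell by 2.52 (SE 0.21, limma adjusted p = 9.75e-05). In newborns 0 genes of the 6 lists were called by limma, as for all genes.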

How the data were processed

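The deposited values are log2 probe set values; the submitters' processing notes name RMA, affy and limma, giving neither version nor role, and the genome build is not given in the sources used here. Of 45101 probe sets, 34958 carry 1 gene symbol, and for each gene the one with the highest mean over all arrays was kept (18194 genes; all 38 members matched RefSeq by gene ID). Array medians were nearly equal, so a general rise or fall of transcripts is not measurable. Precision depends on the number of arrays.

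Means of the 4 groups were estimated jointly in limma (version 3.58.1, under R 4.3.3) by lmFit with eBayes, on 7 residual and 3.85 prior degrees of freedom. The procedure was tested on simulated data. Tests are 2-sided. A gene was called, and said to rise or fall, at a Benjamini-Hochberg adjusted p under 0.05 over all genes of a comparison. Each p-value sets a difference of group means against the spread of arrays within the 4 groups, pooled for each gene. The members and the further lists were chosen with earlier results of these data known. Values on every array are given for members called in transgenic hearts, the 8 largest age changes in controls, members not called there, the 5 smallest p-values of each transgenic comparison and the smallest age p of each role. Of further lists, members called in adults and up to 4 age changes are named. Cenpf values on every array were added after they were seen, as were the genes shown in the plot of selected genes and the promoter stretches.

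Alternatives changed 1 choice at a time: a block for replicate number, the filter on low values (above the 40th percentile on at least 2 arrays), the probe set rule, the normalization, the variance model, the groups in the fit, the 18S batch, a threshold of 0.01, and each array left out.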

Additional observations from a re-analysis of the deposited data

Results flagged for a closer look

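Cenpf, a kinetochore gene outside the 38, had a transgenic effect that differed between the ages. It was -2.52 in adults and -0.05 in newborns, a difference of -2.47 on the log2 scale (limma interaction, SE 0.32, adjusted p = 0.00713). It was lower on 3 of 3 transgenic adult arrays than on every other array. None of the 38 genes differed in this way by the same test at the adjusted threshold.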

How the results depend on the processing

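Counts of the 38 genes called are given, or of the 36 that passed for the filter on low values. In adults, where 1 gene was called, the count was 4 with the replicate block over all 11 arrays, 2 with the filter on low values, 2 with an intensity trend and robust variance, 0 with the compared groups only, 5 with the 18S batch as a factor and 11 without replicate 3 of both adult groups. Leaving out each array in turn gave 1 to 13, with 13 (34.2%, against 12.5% of all genes) without transgenic adult 3. It gave 5 (13.2%, against 8.10%) without control adult 1 and 3 (7.89%, against 5.52%) without control adult 3. Other probe set rules, cyclic loess, a common median and the stricter threshold gave 1 (2.63%), against 2.93% to 7.76% of all genes. A replicate block on the 6 adult arrays alone, chosen after seeing the data, also gave 1 (2.63%, against 3.72% of all genes). For the difference between the ages 0 were called, against 0.687% of all genes. The count was 4 (10.5%, against 3.91%) without replicate 3 of both adult groups. On leaving out each adult or transgenic newborn array the count was 0 to 4, with 4 (10.5%, against 2.97%) without transgenic adult 3. In newborns it was 0 in every alternative, including the replicate block. For the age change it was 31 to 34 in controls and 30 to 32 in transgenics over all alternatives run, and 32 in both with the replicate block. The control counts include a rise of Pttg1 in 4 alternatives, and the transgenic counts lose E2f1 in 12 of 22. For single genes in adults, 37 gene-by-alternative results gained a call and 1 (Ccnd2, compared groups only) lost it; none called changed direction. The cause of these shifts was not tested.

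Replicate numbers were used as names and not as pairs: deviations of same-numbered adult arrays correlated at 0.31, -0.06 and 0.45 over all genes, and those of newborns at 0.18 and -0.15. Dim signal limits the adult comparison, since 18 of the 36 genes that passed the signal filter did so on newborn arrays alone.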

Other observations

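Among the inhibitors of cyclin-dependent kinases, 2 had age changes in transgenic hearts that are given here after their values were seen. Cdkn1a, which encodes p21, rose in transgenic hearts by 1.23 (SE 0.42, limma adjusted p = 0.0375), against 0.36 in controls (SE 0.47, limma adjusted p = 0.565). It read 9.09, 9.38 and 10.26 in transgenic adults and 8.14, 7.74 and 9.42 in control adults. Cdkn1c, which encodes the inhibitor p57, fell by 2.55 in transgenic hearts and by 1.52 in controls. It read 6.32, 6.10 and 7.40 in transgenic adults and 7.42, 7.31 and 7.47 in control adults. The difference between the genotypes was not called for either gene by limma (adjusted p = 0.77 and 0.383).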
